A study of Mus musculus with 12 samples.

Results

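mmu-miR-143 and mmu-miR-145 are a pair of neighbouring microRNAs known from vascular smooth muscle. They were taken by name from the array table, starred names left out, and are 2 of the 1096 miRNA names measured. Levels were measured at postnatal day 7 in quadriceps muscle of 6 mice without cofilin-2 (genotype given as cofilin-2 null, called KO1 to KO6) and of 6 wildtype mice (WT1 to WT6), all on the C57Bl/6 background, with 1 mouse per sample. The methods describe 6 pairs of littermates. Cofilin-2 is the muscle isoform of a protein that severs actin filaments; how its gene was disrupted is not given in the sources used here. Its own level is not measured by a miRNA array, so the genotypes could not be checked in these data. Whole muscle was used, so that fewer cells of a type and less RNA per cell cannot be told apart. Cy5 is the label given for every WT sample and Cy3 for every KO sample, and dye and genotype cannot be told apart either.

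miR-143 and miR-145 are cut from precursors whose genes lie side by side. In the RefSeq annotation of GRCm38.p6, Mir143 and Mir145a have no other gene between them and both lie within Carmn, a long non-coding RNA. In vessels and hollow organs the pair is most abundant in smooth muscle cells, where serum response factor and myocardin switch it on and where it favours the contractile over the proliferating state; targets ascribed to it include the transcription factors Klf4 and Elk1. Skeletal muscle fibres themselves are marked by other miRNAs, above all miR-1, miR-133 and miR-206, endothelial cells by miR-126, and fibroblast-like mesenchymal cells by miR-199a and miR-214.

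The mature sequences shown here are those of the endothelial and mesenchymal miRNAs against which the pair was set, followed by some of the miRNAs whose levels tracked one of the pair most closely from mouse to mouse. They are from RefSeq (GRCm38.p6), in which all 7 names searched were matched, and the capitals mark the seed, bases 2 to 8, with which a miRNA recognises its targets. The 7 seeds are all different. Sequences of the pair itself, and of the miRNA most like each member (miR-320 and miR-543*), are not among them.
miR-126-3p (RefSeq miR-126a-3p): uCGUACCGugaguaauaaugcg
miR-199a-3p: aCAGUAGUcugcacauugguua
miR-199a-5p: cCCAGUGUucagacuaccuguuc
miR-191 (RefSeq miR-191-5p): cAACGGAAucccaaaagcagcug
miR-361 (RefSeq miR-361-5p): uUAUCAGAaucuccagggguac
miR-431 (RefSeq miR-431-5p): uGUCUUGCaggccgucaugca
miR-615-3p: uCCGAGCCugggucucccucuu

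The deposited values were normalized intensities on a linear scale, with sums of 594311 to 636136 per sample. Samples of one genotype correlated with each other at 0.949 to 0.970 on average in WT and at 0.907 to 0.945 in KO2 to KO6. KO1 stood apart at 0.848, so the results are given with and without it. The main markers of the muscle fibre fitted the labelled tissue, with intensities of 21266 to 29194 for miR-206 and 39535 to 71199 for miR-1a. miR-133a and miR-133b were at 4180 or more in every sample. Other names listed for the fibre, miR-208a-3p, miR-208b and miR-499, stayed at 30 or less. No miRNA of a list of 10 from epithelial, neural and liver cells was above 35 in any sample. Differences were tested with limma on log2 intensities. Names with a mean under 32 were too dim to enter, which left 370, both members included.

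miR-143 was measured at nearly the same level in both genotypes. Its intensity in WT ran from 2486 in WT5 to 3592 in WT1, with a median of 3108. In KO it ran from 2197 in KO5 to 4934 in KO1, with a median of 3012. The KO samples therefore lay on both sides of the WT range, with 2 below every WT sample, 1 above every WT sample and the other 3 inside it. WT averaged 3086 ± 433 (SD, n = 6), and KO averaged 3130 ± 978 (SD, n = 6). The log2 change, KO minus WT, was -0.02 with a standard error (SE) of 0.217, a 95% interval from -0.49 to 0.45 and an adjusted p of 0.977 from limma. On the linear scale that interval runs from 0.714 to 1.36 times the WT level. The two-sided exact permutation test of the log2 intensities gave p = 0.924.

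The KO samples varied more than the WT samples in miR-143, and KO1 accounted for much of the range. The highest KO value was 2.25 times the lowest, against 1.44 times in WT. Without KO1 the mean in KO was 2769 ± 468 (SD, n = 5), a spread close to that of WT. On the log2 scale KO was then lower than WT by a fitted -0.16 (SE 0.181), with an adjusted p of 0.577 from limma. The SD of log2 intensities of miR-143 was 0.207 in WT, where the median over all miRNAs tested was 0.416, and 0.413 in KO, where that median was 0.609. Only 10.3% of the miRNAs tested varied less than miR-143 among the WT mice, and 24.6% among the KO mice. These shares are over names of every brightness from a mean of 32 up, and names as bright as miR-143 were not compared apart.

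miR-145 had lower values in KO, by an amount that did not pass the test. In WT its intensity ran from 841 in WT4 to 1742 in WT2, with a median of 1224. In KO it ran from 403 in KO4 to 1307 in KO1, with a median of 858.5. The groups overlapped: KO2, KO3 and KO4 lay below every WT sample, whereas KO1, KO5 and KO6 lay inside the WT range. WT averaged 1254 ± 326 (SD, n = 6), and KO averaged 859.3 ± 316 (SD, n = 6), which gives a KO/WT ratio of 0.685. The log2 change was -0.60 (SE 0.286), with an unadjusted p of 0.0561, an adjusted p of 0.261 from limma, and a 95% interval from -1.21 to 0.02, or 0.431 to 1.01 times the WT level. The two-sided exact permutation test gave p = 0.0606.

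**Figure D1:**
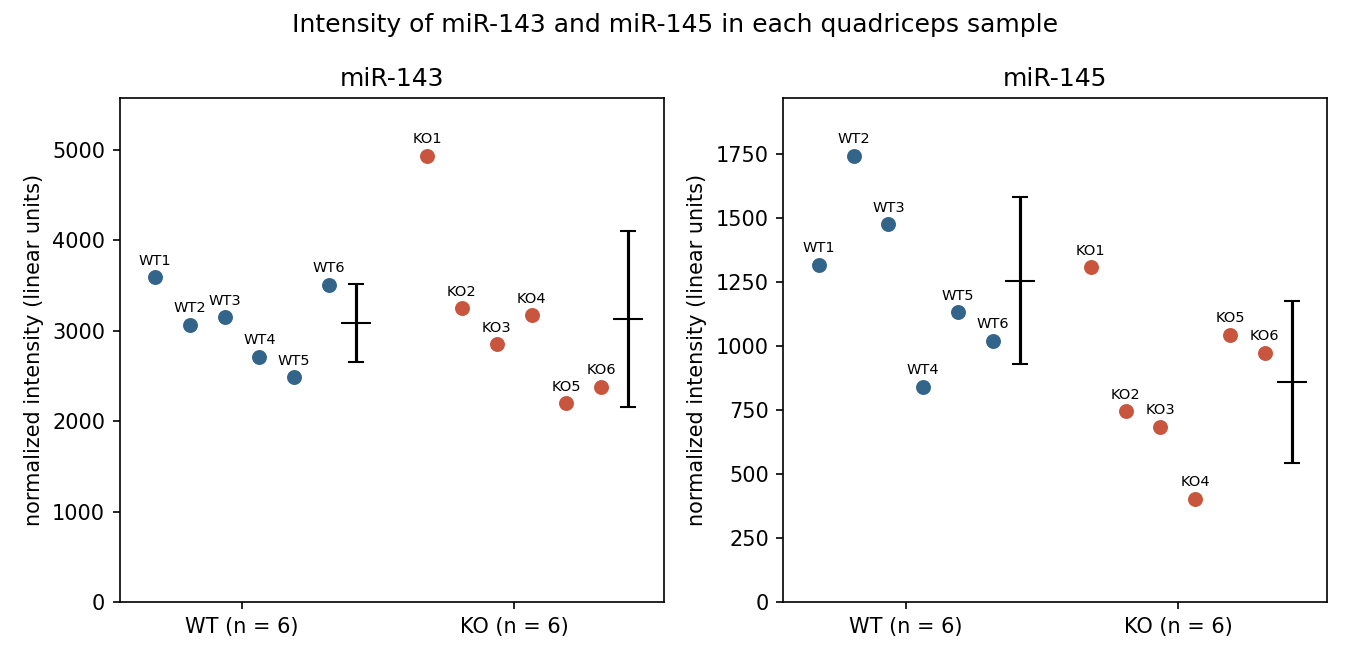
Normalized intensity (linear, y axes from 0) of miR-143 and miR-145 in each of the 6 WT and 6 KO samples, with the mean and SD of each genotype as a bar at the right of its points. The genotypes overlap in both panels; KO1 has the highest miR-143 of all samples, at 4934, and KO4 the lowest miR-145, at 403.

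The size of the difference in miR-145 depended on single samples, most of all on 2 KO mice at opposite ends of the range. Without KO1 the mean in KO was 769.8 ± 254 (SD, n = 5) and the log2 change -0.74 (SE 0.272), with an unadjusted p of 0.0179 and an adjusted p of 0.0905 from limma. Without KO4 the log2 change was -0.40 and the adjusted p 0.466 from limma. WT samples moved it as well, to -0.71 without WT4 and to -0.50 without WT2. The change was below 0 in all 12 fits that each left out 1 sample, and none of them passed the adjusted threshold. With a weight estimated for each array, which gave KO1 the lowest weight of all samples, 0.156, the log2 change of miR-145 was -0.85 with an adjusted p of 0.0131 from limma. That fit put 115 of the 370 miRNAs past the adjusted threshold, against 5 without weights, so the call was not particular to miR-145.

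Neither member was therefore among the miRNAs called. Of the 370 miRNAs tested, 1.35% had an adjusted p under 0.05 and 19.5% an unadjusted p under 0.05. Ordered by p, miR-145 stood at place 79 and miR-143 at place 352 of the 370. Ordered by the log2 change from the lowest, miR-145 was at place 45. The median log2 change of all miRNAs tested was -0.08.

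Since both are made from neighbouring genes, the ratio of miR-145 to miR-143 within each sample was compared between the genotypes. The log2 difference, miR-145 minus miR-143, averaged -1.33 ± 0.376 (SD, n = 6) among WT samples, compared with -1.91 ± 0.677 (SD, n = 6) among KO samples. The 2 probes may differ in brightness, so that only the shift between genotypes can be read, not the ratio itself. In 4 of the 6 KO samples, KO1 to KO4, the difference was below that of every WT sample, and in KO5 and KO6 it was inside the WT range. The shift was -0.58 (95% interval from -1.28 to 0.13), which the two-sided exact permutation test did not separate from 0 (p = 0.0952, adjusted p = 0.222 over 7 pairs of miRNAs). Without KO4, the sample lowest in miR-145, the shift was -0.36 (exact permutation p = 0.190), and without KO5 it was -0.75 (exact permutation p = 0.0346, adjusted p = 0.121).

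The levels of miR-143 and miR-145 did not follow one another closely from mouse to mouse. Across the 6 WT mice Pearson's r of their log2 intensities was 0.288 (exact permutation p = 0.561) and Spearman's rho 0.200 (exact permutation p = 0.714). Without WT1 and WT5, the samples farthest from the median of miR-143, r was 0.249 over 4 mice. The value was not stable in WT: it was 0.00612 without WT4 and 0.533 without WT6, and ran from 0.105 after cyclic loess to 0.553 after median centring. Across the 6 KO mice r was 0.135 (exact permutation p = 0.864) and rho 0.0286 (exact permutation p = 1). In KO the value rested on KO1, the brightest KO sample for both members: without it r was -0.787, and without KO1 and KO5 it was -0.688. Adjusted over the 2 genotypes, p was 0.864 for each r and 1 for each rho. With 6 mice per genotype a moderate relation would not have been detectable.

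**Figure D2:**
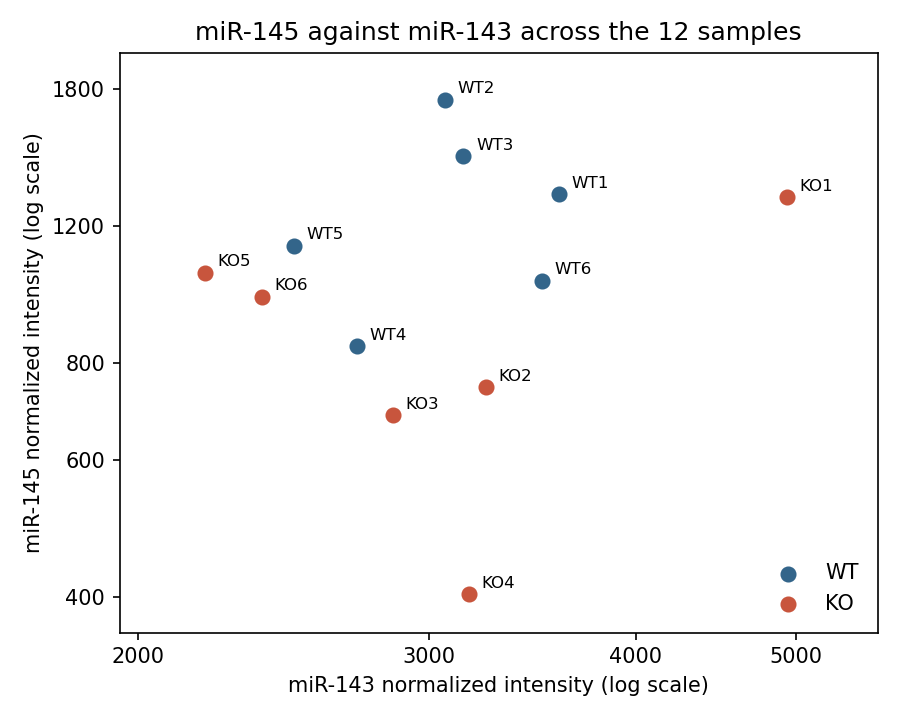
miR-145 against miR-143, both as normalized intensity on log axes, with 1 point for each of the 12 samples, WT in blue and KO in red. The points form no line within either genotype, and KO1 lies alone at the right, at 4934 for miR-143.

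The opposite strands of the precursors gave almost no signal. miR-143* was between 8 and 17 in WT and between 5 and 14 in KO, and miR-145* between 2 and 9 in WT and between 1 and 23 in KO. For comparison, the median over all names was 12 to 14, depending on the sample. Both starred names were under the mean intensity of 32 asked for and were not tested.

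The pair was then set against 1 miRNA of each other main cell type of the muscle, in the same samples. The endothelial miR-126-3p ran from 2230 to 4741 in WT, with a median of 3750.5, and from 760 to 2705 in KO, with a median of 1431. All KO samples but KO1 and KO6 lay below every WT sample, and the log2 change was -1.20 with an SE of 0.313 and an adjusted p of 0.0615 from limma. For the mesenchymal miR-199a-3p the log2 change was -0.44 with an SE of 0.235 and an adjusted p of 0.320 from limma, and for miR-133a, a miRNA of the muscle fibre, -0.35 with an SE of 0.254 and an adjusted p of 0.493 from limma. Without KO1 these log2 changes were -1.32, -0.38 and -0.27, and miR-126-3p then passed the adjusted threshold (adjusted p = 0.0242 from limma). So did 13.2% of all miRNAs tested in that fit.

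Relative to miR-126-3p, miR-143 stood higher in KO than in WT. The within-sample log2 difference, miR-143 minus miR-126-3p, averaged -0.17 in WT and 1.01 in KO, and 4 of the 6 KO samples were above every WT sample. This shift of 1.18 (95% interval from 0.35 to 2.01) had an exact permutation p of 0.0152, and the adjusted p over the 7 pairs was 0.106, which did not pass. Nearly all of it came from miR-126-3p, with a log2 change of -1.20, since that of miR-143 was -0.02. As miR-126-3p was chosen with earlier results known, the shift adds nothing on miR-143 itself. For miR-145 minus miR-126-3p the shift was smaller, at 0.60 (95% interval from 0.02 to 1.19, exact permutation p = 0.0433, adjusted p = 0.152). The log2 change of miR-145 itself was -0.60, so the shift was upward only because miR-126-3p fell further. Given how miR-126-3p was chosen, this shift likewise adds nothing on miR-145 itself. Again 4 KO samples lay above every WT sample, but KO4, at -1.685, was level with the lowest WT sample, WT3, at -1.684. Without KO1 the shifts against miR-126-3p were 1.15 for miR-143 (exact permutation p = 0.0303, adjusted p = 0.106) and 0.58 for miR-145 (exact permutation p = 0.0823, adjusted p = 0.192). The unadjusted p of miR-145 was also above 0.05 after quantile normalization, at 0.0996 by the exact permutation test.

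Against the mesenchymal miR-199a-3p and the fibre miRNA miR-133a no shift of the pair was separated from 0. The shift of miR-143 was 0.42 against miR-199a-3p (95% interval from -0.35 to 1.20) and 0.33 against miR-133a (95% interval from -0.51 to 1.16), with adjusted exact permutation p-values of 0.394 and 0.480. The shift of miR-145 was -0.15 against miR-199a-3p (95% interval from -0.84 to 0.53) and -0.25 against miR-133a (95% interval from -0.85 to 0.35), with adjusted exact permutation p-values of 0.639 and 0.480. These intervals are wide, so equal behaviour was not shown. Nor do these comparison miRNAs stand for every name of their cell types. Among mesenchymal names the log2 change was -0.03 for miR-214, -0.02 for miR-214*, -0.04 for miR-199b* and -0.18 for miR-199a-5p. Among fibre names it was 0.17 for miR-1a, -0.08 for miR-206, -0.38 for miR-133b and -0.25 for miR-133a*. Shifts of the pair against these names were not tested. The shift of miR-145 against miR-199a-3p changed sign without KO4, to 0.06, and that against miR-133a was -0.10 there. The shift of miR-143 against miR-133a was 0.55 without KO5. Without KO1 the shifts of miR-143 against miR-199a-3p and miR-133a were 0.21 and 0.11, and those of miR-145 were -0.36 and -0.47; none of the 7 shifts passed after adjustment there, the smallest adjusted exact permutation p being 0.106.

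**Figure D3:**
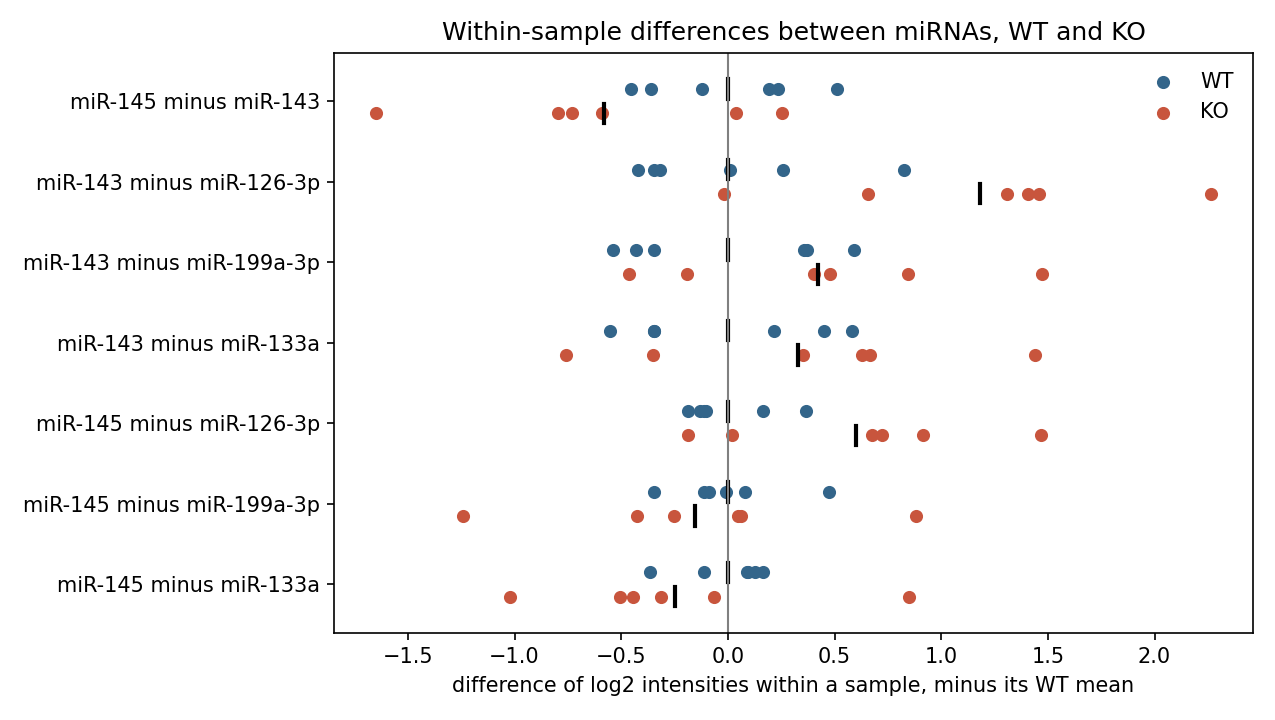
Difference of log2 intensities between 2 miRNAs within each sample, minus the WT mean of that difference (x axis), for the 7 pairs compared; points are samples, WT in blue and KO in red, and black bars are genotype means. The KO samples lie farthest to the right for miR-143 minus miR-126-3p, with a mean shift of 1.18, and farthest to the left for miR-145 minus miR-143, at -0.58.

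Other miRNAs with known roles in vascular smooth muscle were taken as a list of 17, among them miR-21, miR-221 and miR-222, which favour proliferation, and miR-26a and miR-24. All 17 were on the array, with miR-1 listed there as miR-1a, and 13 passed the filter on dim values. miR-1a and miR-133a also stand among the names of the muscle fibre, so the list is not particular to smooth muscle. Of these 13, 2 fell at the unadjusted threshold and none rose; over all miRNAs tested 9.73% fell at that threshold. None of the 13 passed the adjusted threshold. The 2 were miR-16, which restrains the cell cycle, and miR-100, which targets mTOR. miR-16 ran from 1548 to 2550 in WT and from 545 to 1626 in KO, where all samples but KO1 were below the WT range, and its log2 change was -1.09 (SE 0.262, unadjusted p = 0.00103, adjusted p = 0.0586 by limma). miR-100 ran from 115 to 199 in WT and from 40 to 163 in KO, with KO1 and KO6 inside the WT range, and its log2 change was -1.10 (SE 0.337, unadjusted p = 0.00590, adjusted p = 0.0955 by limma). The median log2 change of the 13 was -0.35, against -0.08 for all miRNAs tested, and that of miR-143 was nearer to 0 than either. Without KO1 there were 3 past the unadjusted threshold, with miR-222 as the third, but the share of all miRNAs tested that fell at that threshold was then higher as well, at 15.4%. miR-16 and miR-100 then passed the adjusted threshold (adjusted p = 0.0103 and 0.0222 from limma), as did 13.2% of all miRNAs tested.

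**Figure D4:**
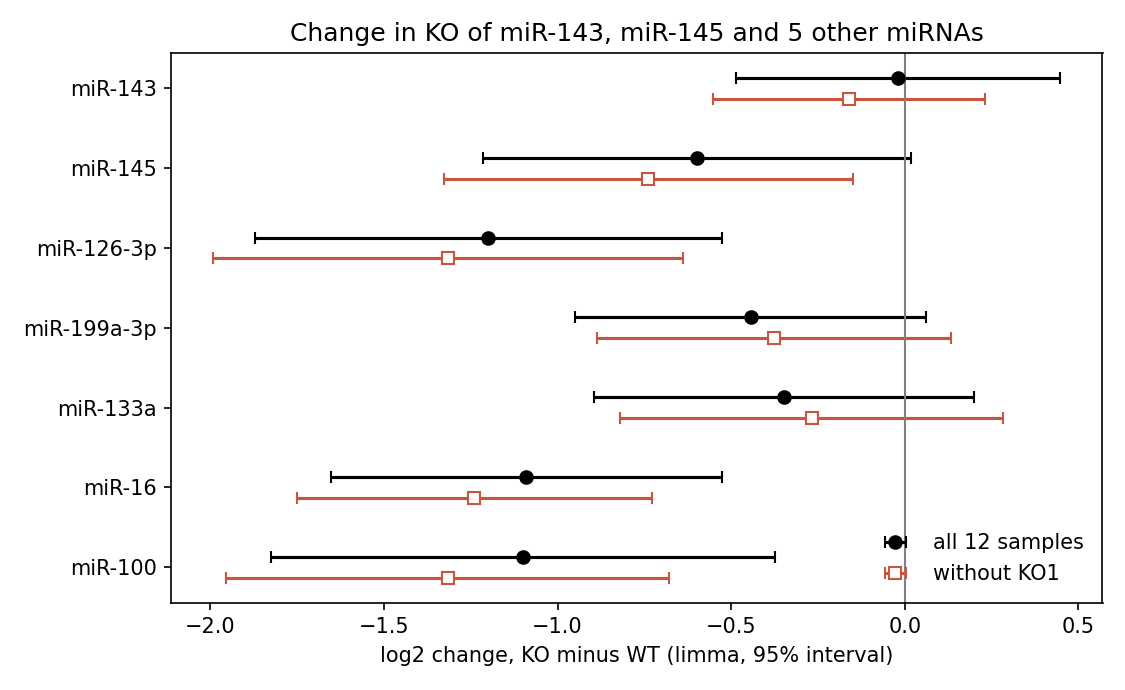
Log2 change, KO minus WT, with its 95% interval from limma, for miR-143, miR-145, the 3 comparison miRNAs and the 2 miRNAs of the vascular smooth muscle list that fell at the unadjusted threshold; black circles are fits with all 12 samples and open red squares fits without KO1. The interval of miR-143 is centred near 0, at -0.02, and that of miR-145 at -0.60 just reaches past 0 with all samples.

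Markers of the other cell types were measured beside these values. The summed intensity of the 2 endothelial strands ran from 2233 to 4745 in WT and from 765 to 2709 in KO, nearly all of it from miR-126-3p, since miR-126-5p was at 6 or less in every sample. The 5 mesenchymal names summed to 16134 to 21850 in WT and to 14749 to 20042 in KO. None of them passed the unadjusted threshold, which 19.5% of all miRNAs tested passed. The names of the muscle fibre, of which 8 of the 9 listed were matched and 5 tested, summed to 81271 to 93667 in WT and to 79280 to 106131 in KO, and none passed it either. With 5 names tested in each of these lists, such counts do not show that the names were unchanged. Among the fibre names miR-208a-3p, miR-208b and miR-499, which accompany slow and cardiac myosin genes, stayed at 30 or less in every sample. Of 6 blood names, only miR-451 of red cells was bright enough to be tested, at 43 to 417 in WT and 16 to 318 in KO (adjusted p = 0.497 from limma). The part of these cell types in the values of miR-143 and miR-145 was not tested.

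The miRNAs whose levels were most like those of each member were then sought, by Pearson's r over the 12 samples after each genotype was centred on its own mean. For miR-143 these were miR-320 (r = 0.926), miR-191 (r = 0.913), miR-361 (r = 0.910), miR-674 (r = 0.909) and miR-103 (r = 0.896). All 5 were, like miR-143, highest among the KO samples in KO1, and each had its highest WT value in WT1, which miR-103 reached in WT6 as well. With a sample left out the lowest of the 5 values was 0.776, for miR-103 without KO1. Quantile normalization lowered 4 of them further, to 0.688 for miR-361, 0.715 for miR-103, 0.718 for miR-674 and 0.773 for miR-320, while miR-191 stayed at 0.893. miR-145 itself stood at place 140 of 369 in this order, with r = 0.171. The mesenchymal miR-214 had r = 0.867 with miR-143, at place 13, while miR-199a-3p had r = -0.49.

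For miR-145 the most alike were miR-543* (r = 0.908), miR-431 (r = 0.870), miR-615-3p (r = 0.864), miR-199a-5p (r = 0.855) and miR-1983 (r = 0.852). 4 of the 5, miR-431 being the exception, were like miR-145 in having their lowest KO value in KO4, and all 5 had their highest KO value in KO1. Quantile normalization gave r = 0.775 for miR-431, and raising all values under 32 to 32 gave r = 0.635 for miR-615-3p, whose intensities ran from 12 to 81. The mesenchymal miR-199a-3p had r = 0.290 with miR-145. The endothelial miR-126-3p had r = 0.637 with miR-145 and r = 0.00636 with miR-143. These values are descriptions, since the leading names were chosen by them and the samples share a normalization. Values of r were spread widely over all miRNAs tested, with quartiles at -0.46 and 0.40 for miR-143 and at -0.40 and 0.39 for miR-145.

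**Figure D5:**
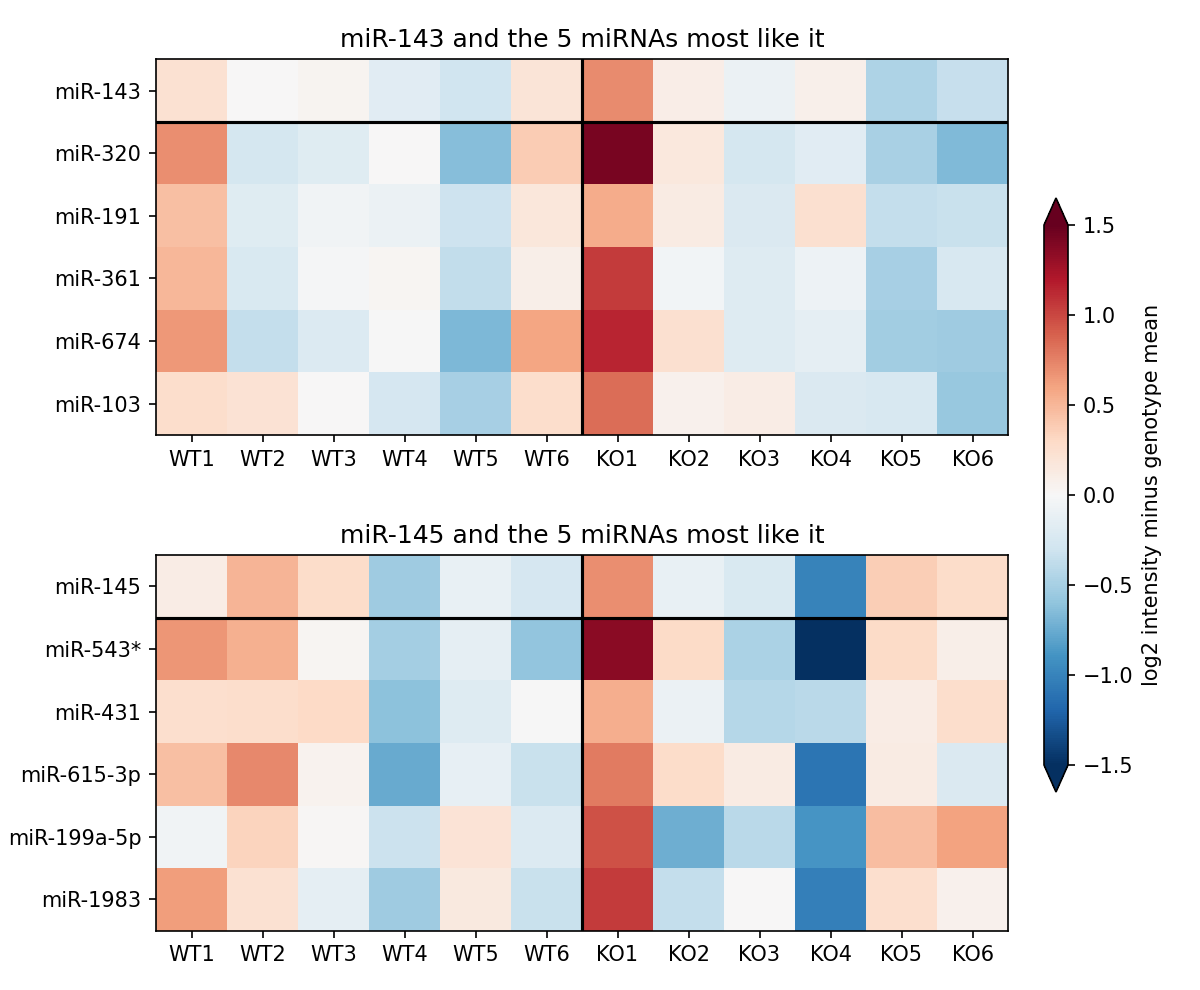
Log2 intensity minus the mean of its genotype (colour, red above and blue below; the scale ends at 1.5) in each of the 12 samples for miR-143 and miR-145, each with the 5 miRNAs most like it. The upper set is reddest in KO1, where miR-143 was at 4934, and the lower set is bluest in KO4, where miR-145 was at 403, except for miR-431.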

How the data were processed

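Total RNA of quadriceps muscle was profiled by LC Biosciences; the array covered the mouse miRNAs of miRBase version 17. The authors deposited 1 table of normalized intensity values, linear and in whole numbers; the normalization, background correction and averaging of repeated spots are not given in the sources used here. The titles gave each sample its genotype and number. Array intensities have no counts behind them, so that the 6 mice per genotype limit the precision.

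Intensities were taken to log2, with 1 as the lowest value allowed, and names with a mean intensity under 32 were left out. The genotypes were compared by limma 3.58.1 (lmFit, eBayes) in R 4.3.3, with Benjamini-Hochberg adjustment over the 370 miRNAs tested and a threshold of 0.05. Within-sample differences between 2 miRNAs (7 pairs) and correlations were tested by exact permutation over samples with scipy 1.17.1, two-sided; their 95% intervals use the pooled SD. The fit was checked on simulated data in which miRNAs varied independently and with the same spread in both genotypes. That check therefore does not cover an outlying sample such as KO1 or the wider spread in KO. Members, lists, comparison miRNAs and tests were chosen with earlier results of these data known. The named miRNAs are the 2 members, their starred strands, the 3 comparison miRNAs, the 5 most alike per member, and listed miRNAs past the unadjusted threshold; further names were chosen after their values were seen. As alternatives, the lowest value was set to 32 or a pseudocount of 50 was added; others were filters, scalings and variance models, array weights, the methods' t-test, which they name for the mRNA arrays, the replicate number as a block, and each sample left out; the list counts without KO1 and the left-out values of the likeness were added after seeing the data. Plots were drawn with matplotlib 3.10.9.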

Additional observations from a re-analysis of the deposited data

Results flagged for a closer look

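Of 48 groups of 6 samples, made of 24 quantities in WT and in KO, 1 held a sample far from the others by Dixon's test at the 5% level, where chance alone gives about 2.4. It was miR-361, one of the miRNAs most like miR-143, with an intensity of 1162 in KO1 where KO2 to KO6 had 396 to 545; the gap to the next sample took up 0.703 of the KO range in log2. No sample of miR-143 or of miR-145 was so far from its group, although KO1 for miR-143 and KO4 for miR-145 were the extreme samples.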

How the results depend on the processing

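The log2 change of miR-145 stayed below 0 in every fit run and short of the adjusted threshold in all but the one with array weights (-0.85); the other 11 settings gave -0.50 to -0.67. Its unadjusted p, 0.0561, was under 0.05 with a pseudocount of 50 (0.0442), median centring (0.0431), quantile normalization (0.0439), the minimum of 500 (0.0470), the replicate block (0.0410) and array weights (0.00254), and without WT4, KO1 or KO5. That of miR-143, -0.02, changed sign under cyclic loess (0.0584), alone and together with the replicate block (0.0584), and ran from -0.16 to 0.0720 with a sample left out; it passed no threshold. With the replicate block the values were -0.60 for miR-145 (adjusted p = 0.196) and -0.02 for miR-143. Samples of the same number did not deviate together consistently (correlations of -0.45 to 0.59). For numbers 1, 4 and 5 the KO sample was closest to the WT sample of its number. The correlations were 0.59, 0.22 and 0.48, against at most 0.08, 0.21 and 0.18 with another number. For numbers 2, 3 and 6 a WT sample of another number was closer. This check was mixed and cannot settle whether a number marks a litter, so the numbers were not taken as pairs. The methods' t-test gave adjusted p-values of 0.298 for miR-145 and 0.974 for miR-143. The shift of miR-145 against miR-199a-3p ran from -0.36 to 0.0628 with a sample left out. None of the 7 shifts passed after adjustment under any setting without a block; the exact test with a block cannot give a p under 0.0313, which leaves it little room to pass over 7 pairs, and nothing is read from it. The correlation of the members in KO was -0.00194 after quantile normalization and -0.79 to 0.38 with a sample left out. 5 miRNAs passed the adjusted threshold; this count was 1 with no filter, 8 after quantile normalization, 11 after cyclic loess, 14 with a pseudocount of 50 and also with a variance trend and robust estimation together, 21 with a mean intensity of at least 500, 115 with array weights and 3 to 49 with a sample left out (49 without KO1, 11 without WT4, 8 without KO4, 3 without WT3 or KO2). The unadjusted count, 72, was 123 with no filter, 45 with the higher minimum, 156 with array weights and 57 to 106 with a sample left out. Filters change how many miRNAs are tested; otherwise the cause was not tested.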

Other observations

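The miRNA least like miR-145 was miR-1a, a miRNA of the muscle fibre, with r = -0.86 over the 12 samples after centring on genotype, the lowest of 369. miR-1a was at its highest intensity, 71199, in KO4, the sample in which miR-145 was lowest. With miR-143 the r of miR-1a was -0.22, and the lowest value there was that of miR-5117 (r = -0.92). These names were chosen after their values were seen. miR-1a held the largest intensity on the array and summed intensities differed little between samples; the part of that scaling in the correlation was not tested.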
